A study of Homo sapiens with 18 samples.

Results

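The comparison described here is LNCaP cells given genistein at 10 µM for 24 h against untreated LNCaP cells. It rests on 3 libraries of each group, chosen by the cell line, agent and concentration in their labels, and so on 6 of the 18 libraries of the series. LNCaP is a line of prostate cancer cells that respond to androgen and were first taken from a lymph node. Both groups are labelled wild type, and the cells were grown in RPMI-1640 with fetal bovine serum. The labels call the control cells untreated, while the treatment protocol says that controls received the DMSO vehicle, and they are called untreated here. The other libraries are LNCaP with genistein 20 µM or with baicalein 10 or 20 µM and untreated PC-3, another prostate cancer line. RNA was measured by poly(A) sequencing, and every gene with enough reads was tested. Nothing in the labels says that the 3 libraries of a group came from separate cultures, and p-values therefore reflect variation among libraries that could be technical alone.

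Genistein is an isoflavone of soy, known as an inhibitor of protein tyrosine kinases, as a ligand of oestrogen receptors and as a poison of type II DNA topoisomerases. Immediate early genes such as FOS and EGR1 are transcribed within minutes of growth factor or stress signals, without new protein synthesis, and many of their products are transcription factors. In LNCaP androgen drives a programme of secretory and differentiation genes, and serum in the medium carries steroid hormone. Genes of these systems are described in turn, with values in CPM, counts scaled to a common library size with TMM factors. CPM compare a gene between libraries and not one gene with another, since they are not divided by transcript length.

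The 6 libraries held between 12138311 and 18445711 counts. Mitochondrially encoded genes took 5.50, 6.32 and 6.35% of the counts with genistein 10 µM and 4.65, 5.36 and 5.26% in untreated cells. Most luminal prostate markers were abundant in both groups. Of the 12 tested, 5 had log2 fold changes above 0 and 7 below it, with a median of -0.16. In this list edgeR called 1 lower, beside 0.0765% of all genes, and DESeq2 called 3 lower, beside 0.422%. KRT18, a luminal keratin, stood at 152 ± 8.42 CPM with genistein 10 µM and 145 ± 4.83 CPM in untreated cells (SD, n = 3 each, as in all means below), and FOLH1, which encodes the prostate-specific membrane antigen, at 970.3 ± 27.6 CPM with genistein and 879 ± 25.6 CPM untreated. Markers of other cell types were sparse. Of the neuroendocrine list 1 of 8 members was tested, of the fibroblast and endothelial list 3 of 9, of the leukocyte list 1 of 7 and of the basal and mesenchymal list 4 of 10. Their summed levels were 3.13 to 3.88, 16.8 to 20.0, 0.393 to 0.613 and 779 to 814 CPM with genistein 10 µM, against 2.99 to 3.37, 19.3 to 21.2, 0.550 to 0.804 and 955 to 1020.3 CPM in untreated cells. KRT5, INSM1, COL1A2, DCN and CDH5 had no count in any of the 6. The last of these sums is nearly all FN1, which encodes fibronectin (769 to 806 CPM with genistein 10 µM and 945 to 1012 CPM in untreated cells). On the first principal component, which held 33.9% of the variance, the genistein libraries lay at -2.85, -25.5 and -38.5. The untreated libraries lay at 44.1, 6.93 and 15.8, with replicate 1 farthest out. The groups did not overlap there, but libraries within a group were spread widely. On the second component (18.7%) genistein replicate 1 lay at 39.1, far from all other libraries.

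Few transcripts differed. Of 16985 genes tested, 19 were called at an adjusted p under 0.05 (edgeR quasi-likelihood test, Benjamini-Hochberg adjustment over all genes), which is 0.112%. Of these, 6 were higher with genistein 10 µM (0.0353%) and 13 were lower (0.0765%). The 6 that rose are FOS, FOSB, EGR1, CCN1, TRIB1 and NDST1, and those that fell include the androgen-regulated GREB1, FKBP5 and ADAM7 as well as OTULINL, CHRNA2, UHRF1 and WWTR1. At an unadjusted p under 0.05 there were 1458 genes (8.58%), of which 929 were higher (5.47%) and 529 lower (3.11%). DESeq2 called more, with 58 genes higher (0.344%) and 71 lower (0.422%) of 16843 with an adjusted p, and 17 of the 19 genes were among them. Of the other two, MT-TP missed the threshold and CCDC141 had no adjusted p. With the trend on GC content and gene length removed, edgeR called 21 higher and 21 lower. When the 6 libraries were fitted without the other LNCaP groups, 13 of the 19 calls remained. The calls lost were those of TRIB1, TNFRSF19, WWTR1, TRIM49D2, CCDC141 and MT-TP (adjusted p 0.0565 to 0.119). With each of the 6 libraries left out in turn, 5 to 8 genes were called higher and 4 to 8 lower. The median 95% interval of a gene reached 0.47 to either side on the log2 scale. It lay wholly within a 2-fold change for 11971 of the 16968 genes with an interval (70.6%), and within a 1.5-fold change for 7183 (42.3%).

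**Figure D1:**
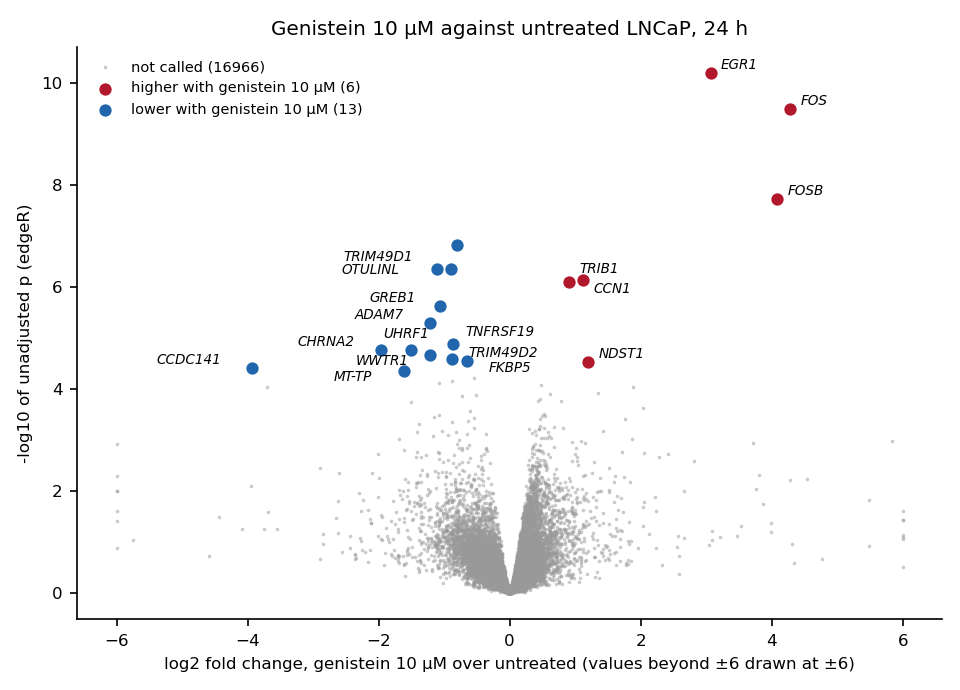
Every tested gene by its log2 fold change, genistein 10 µM over untreated (x axis), and by -log10 of its unadjusted p from edgeR (y axis). The 6 genes called higher (red) and 13 called lower (blue) stand above the genes that were not called (grey), and FOS, FOSB and EGR1 stand apart from the rest.

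FOS, FOSB and EGR1, all immediate early genes, gave the 3 largest called rises. FOS, which encodes a partner of JUN in AP-1 (ENSG00000170345, chr14:75278826-75282230, plus strand, GRCh38), had 124, 109.8 and 108 CPM with genistein 10 µM, against 7.32, 5.38 and 4.77 CPM in untreated cells. The lowest genistein library thus held many times the highest untreated one, and FOS rose 19.5-fold (log2 fold change 4.28 ± 0.25, SE, adjusted p = 2.69e-06). FOSB, a close relative of FOS (chr19:45467995-45475179, plus strand), had 5.44, 5.40 and 4.05 CPM with genistein against 0.208, 0.367 and 0.287 CPM in untreated cells, where the libraries held 4 to 6 reads each. It rose 16.98-fold (4.09 ± 0.34, adjusted p = 0.000106). EGR1, a zinc finger transcription factor (chr5:138465479-138469303, plus strand), had 13.6, 11.9 and 13.3 CPM with genistein against 1.35, 1.96 and 1.32 CPM in untreated cells and rose 8.38-fold (3.07 ± 0.16, adjusted p = 1.06e-06). All 3 genes remained called with any of the 6 libraries left out. CCN1, a secreted matricellular protein formerly named CYR61, had 20.2, 22.1 and 24.3 CPM with genistein 10 µM and 10.4, 10.6 and 9.59 CPM in untreated cells. Its groups do not overlap, and the rise was 2.17-fold (1.12 ± 0.13, adjusted p = 0.00164).

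Promoter sequences of the 3 strongest risers are shown because they rose together. Each is the 250 bases before the gene's start in RefSeq (GRCh38.p14), in lower case. For FOS and FOSB that start differs slightly from the gene coordinates given above. CArG boxes, the sites of serum response factor, and half-sites of the cyclic AMP response element (TGACG, searched on both strands) are in capitals.
FOS: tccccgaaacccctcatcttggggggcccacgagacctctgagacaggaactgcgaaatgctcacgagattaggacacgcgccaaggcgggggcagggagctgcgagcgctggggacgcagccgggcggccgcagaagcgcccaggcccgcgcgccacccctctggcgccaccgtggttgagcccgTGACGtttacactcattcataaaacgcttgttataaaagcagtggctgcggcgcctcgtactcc
FOSB: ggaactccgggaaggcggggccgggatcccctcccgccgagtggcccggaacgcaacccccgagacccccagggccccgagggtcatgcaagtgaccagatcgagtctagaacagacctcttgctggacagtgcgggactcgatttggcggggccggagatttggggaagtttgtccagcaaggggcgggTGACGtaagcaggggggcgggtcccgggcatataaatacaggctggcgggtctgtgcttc
EGR1: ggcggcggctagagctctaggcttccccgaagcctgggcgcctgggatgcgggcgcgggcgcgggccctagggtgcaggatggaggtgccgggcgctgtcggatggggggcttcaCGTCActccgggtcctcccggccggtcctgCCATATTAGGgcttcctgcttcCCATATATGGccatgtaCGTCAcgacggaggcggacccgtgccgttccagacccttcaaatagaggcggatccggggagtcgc
The windows are chr14:75278578-75278827, chr19:45467746-45467995 and chr5:138465229-138465478, all on the plus strand. FOS held 1 half-site, 64 to 60 bases before the start, and FOSB held 1, 60 to 56 bases before it. EGR1 held 2 half-sites and 2 CArG boxes, the boxes at 105 to 96 and at 83 to 74 bases before the start. Among 35116 promoter windows of the same length, 21.2% held the half-site and 1.16% a CArG box. The full element TGACGTCA (1.65% of windows) and the AP-1 site TGANTCA (6.57%) had no match in the 3 windows. These are matches of letters within the 250 bases shown. Sites farther upstream were not searched in any of the 3 genes, and binding was not measured.

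No other immediate early gene was called by edgeR. Of 31 listed genes 25 were tested, and 4 were called higher and 0 lower, beside 0.0353% and 0.0765% of all genes. The median log2 fold change was 0.46, against 0.03 over all genes, 22 members were above 0, and in 14 all 3 genistein libraries exceeded all 3 untreated ones, a pattern that 14.1% of all genes show. DESeq2 called 7 members higher, beside 0.344% of genes, adding DUSP1, JUND and IER5. DUSP1, a phosphatase of MAP kinases, had 123.3, 132 and 127 CPM with genistein against 81.9, 66.02 and 74.4 CPM in untreated cells (log2 fold change 0.78 ± 0.15, edgeR adjusted p = 0.0899, DESeq2 adjusted p = 0.000398). JUNB, an AP-1 partner of FOS, had 98.7, 103 and 106 CPM with genistein against 75.8, 73.5 and 74.9 CPM untreated (0.46 ± 0.13, edgeR adjusted p = 0.343). In both genes the groups do not overlap, and neither passed the edgeR threshold. JUN itself had 77.5, 85.6 and 87.2 CPM with genistein 10 µM and 40.3, 5.26 and 42.1 CPM in untreated cells, where 1 library stands far below the other two (1.51 ± 0.67, edgeR adjusted p = 0.564). MYC had a negative estimate, with 16.4, 17.8 and 14.4 CPM with genistein against 10.7, 18.8 and 70.5 CPM untreated, and its untreated libraries differ widely (-1.04 ± 0.74, edgeR adjusted p = 0.68). EGR2, EGR3 and EGR4, relatives of EGR1, had at most 1 read in any library, and FOSL1 had at most 2.

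TRIB1 was the called member of the MAPK feedback list. It encodes a pseudokinase that brings target proteins to a ubiquitin ligase (chr8:125430358-125438403). TRIB1 had 28.2, 28.6 and 33.5 CPM with genistein 10 µM and 14.7, 16.7 and 16.7 CPM in untreated cells, with no overlap, and rose 1.87-fold (0.91 ± 0.10, adjusted p = 0.00164). Of the 12 tested members it was the single one called, beside 0.0353% of all genes called higher. The list's median log2 fold change was -0.04, with 5 members above 0 and 7 below. ETV5, an ETS factor induced through ERK, had 0.613, 0.731 and 1.53 CPM with genistein against 0.571, 0.489 and 0.230 CPM untreated (1.11 ± 0.39, adjusted p = 0.474). SPRED1, an inhibitor of RAS signalling, had 17.6, 11.4 and 9.63 CPM with genistein against 33.5, 21.6 and 22.5 CPM untreated (-1.01 ± 0.40, adjusted p = 0.524). TRIB1 lost its edgeR call when the other LNCaP groups were left out of the fit (adjusted p = 0.0565).

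NDST1, an enzyme of the Golgi that removes acetyl groups from heparan sulfate and sulfates it (chr5:150485818-150558211, plus strand), was the last of the 6 rises. It had 103, 105 and 106 CPM with genistein 10 µM and 42.3, 52.4 and 42.5 CPM in untreated cells. The genistein libraries lie close together and above all untreated ones, and NDST1 rose 2.29-fold (1.196 ± 0.19, adjusted p = 0.0291). The call was lost with any 1 of the 6 libraries left out (adjusted p 0.0703 to 0.217), while DESeq2 kept it. It was the 1 called member of 21 tested genes of heparan sulfate synthesis, beside 0.0353% of all genes called higher. The median of these 21 was 0.09 and turned to -0.03 when the 6 libraries were fitted alone. SDC4, a core protein that carries heparan sulfate, had 13.3, 15.9 and 13.98 CPM with genistein against 9.50, 9.90 and 11.03 CPM untreated (0.50 ± 0.13, adjusted p = 0.319). EXTL2, a glycosyltransferase of the same pathway, had 11.4, 9.27 and 7.64 CPM with genistein against 19.4, 14.4 and 16.03 CPM untreated (-0.81 ± 0.32, adjusted p = 0.522).

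**Figure D2:**
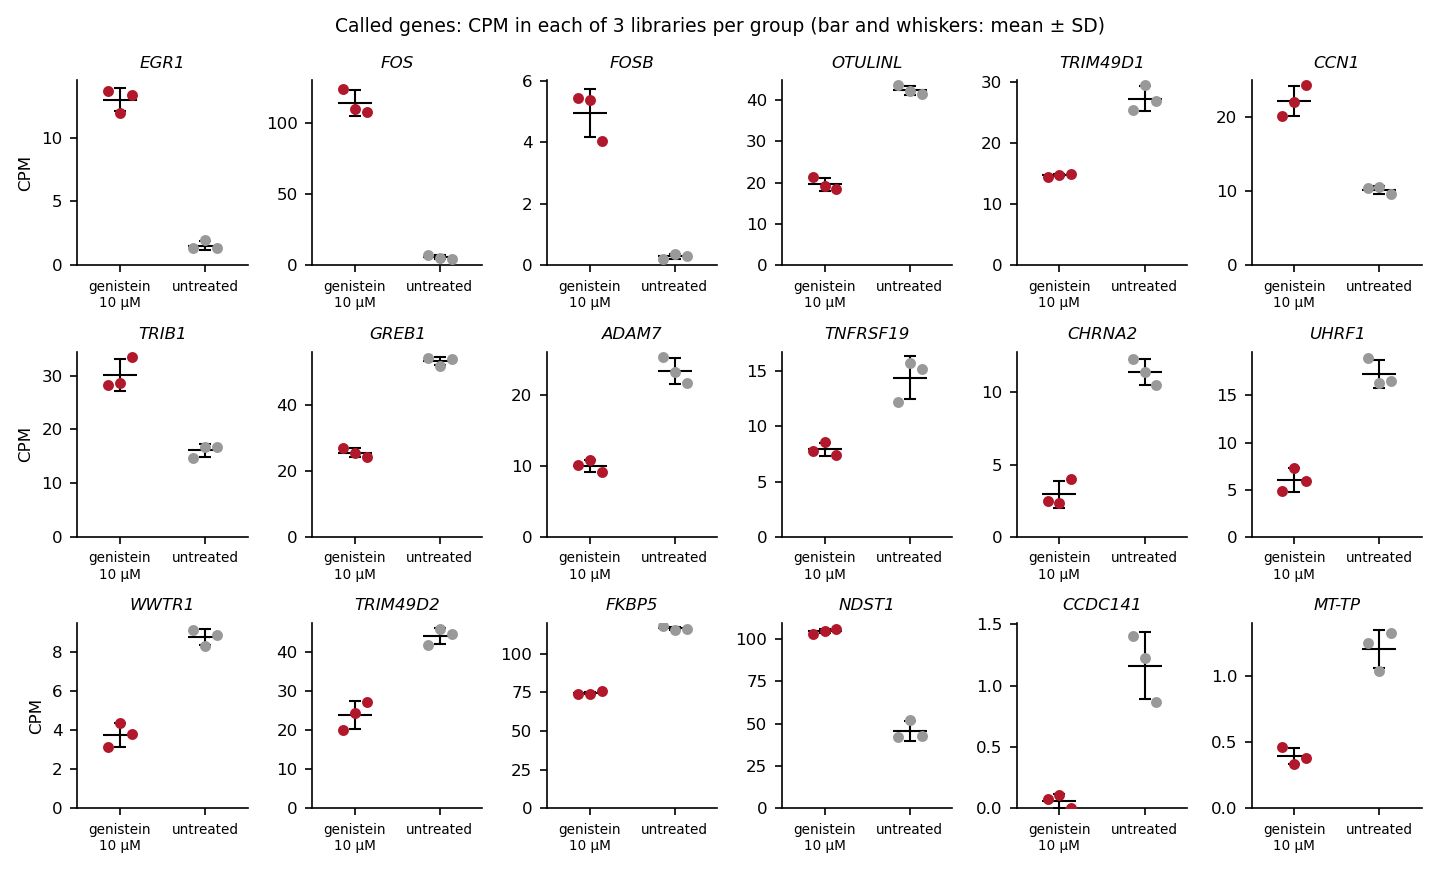
CPM (y axis) of called genes in each of 3 libraries with genistein 10 µM (red) and 3 untreated libraries (grey), with mean and SD as bar and whiskers, for 18 of the 19 called genes. The groups do not overlap in any panel, and CCDC141 and MT-TP lie near or below 1.4 CPM in every library.

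Androgen-induced genes lay mostly below their untreated levels. Of 34 tested members 4 were called lower and 0 higher, beside 0.0765% and 0.0353% of all genes, and 31 had a log2 fold change below 0. The median was -0.41 against 0.03 over all genes, and it stayed between -0.52 and -0.38 in the 14 alternative analyses. In 22 members all 3 genistein libraries lay below all 3 untreated ones, as in 10.2% of all genes. DESeq2 called 11 members lower, beside 0.422% of genes. The luminal prostate markers, 12 genes of which 4 are also on this list, summed to 4112 to 4775 CPM with genistein 10 µM and 4779 to 5143 CPM in untreated cells, and their part in the result was not tested. In bulk RNA, fewer cells of a type and less RNA per cell cannot be told apart. GREB1, a hormone-induced cofactor of steroid receptors (chr2:11482341-11642788, plus strand), had 27.1, 25.4 and 24.1 CPM with genistein 10 µM and 54.4, 51.8 and 53.8 CPM in untreated cells. It fell 2.09-fold (-1.06 ± 0.13, adjusted p = 0.0044) and remained called with any of the 6 libraries left out. ADAM7, an epididymal member of the ADAM family (chr8:24440930-24526970), had 10.1, 10.8 and 9.09 CPM with genistein against 25.3, 23.2 and 21.7 CPM untreated and fell 2.33-fold (-1.22 ± 0.16, adjusted p = 0.00857). Its call was lost without genistein replicate 1 (adjusted p = 0.0614) or replicate 3 (0.0810). FKBP5, a co-chaperone of steroid receptors (chr6:35573585-35728583, minus strand), had 73.8, 74.03 and 75.5 CPM with genistein against 117.5, 115.4 and 116.2 CPM untreated and fell 1.56-fold (-0.64 ± 0.10, adjusted p = 0.0291). Within each group the libraries lie within a few CPM of each other, and the groups are far apart. The call was lost with any 1 of the 6 left out (adjusted p 0.0703 to 0.194) and with the GC and length trend removed (0.0876).

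Other androgen-induced genes lay below untreated cells without an edgeR call. SLC45A3, a sugar transporter of prostate epithelium, had 129, 142 and 143 CPM with genistein against 204, 214 and 223 CPM untreated (-0.63 ± 0.13, edgeR adjusted p = 0.163, DESeq2 adjusted p = 1.72e-05). KLK2, a kallikrein protease, had 45.01, 40.8 and 48.4 CPM with genistein against 64.9, 68.6 and 70.9 CPM untreated (-0.61 ± 0.12, edgeR adjusted p = 0.128, DESeq2 2.81e-05). TMPRSS2, a membrane serine protease, had 217, 246 and 251 CPM with genistein against 304, 332 and 335 CPM untreated (-0.44 ± 0.11, edgeR adjusted p = 0.289, DESeq2 0.00314). None of the 3 overlaps between groups, and DESeq2 called each. KLK3, which encodes prostate-specific antigen, had 913, 1302 and 1169 CPM with genistein against 1376, 1486 and 1628 CPM untreated (-0.41 ± 0.20, edgeR adjusted p = 0.607), with its genistein libraries spread widely. ELL2, an elongation factor, had 121, 89.4 and 79.2 CPM with genistein against 223, 159.6 and 184 CPM untreated (-0.97 ± 0.35, edgeR adjusted p = 0.484). NDRG1, also androgen-induced, had 91.6 ± 9.91 CPM with genistein 10 µM and 95.95 ± 8.33 CPM in untreated cells, an estimate of -0.07 with a 95% interval of -0.40 to 0.27.

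HOXB13, a homeobox factor of prostate, had 450.5, 484 and 504 CPM with genistein 10 µM and 387, 415 and 426 CPM in untreated cells, with no overlap and no call (0.23 ± 0.13, adjusted p = 0.64). Of 8 androgen-repressed genes 0 were called by edgeR, and the median was 0.15. On the higher side 3 had an unadjusted p under 0.05, beside 5.47% of all genes, and DESeq2 called 2, beside 0.344%. UGT2B17, a glucuronosyltransferase that inactivates androgens, had 176, 179.8 and 178 CPM with genistein against 138, 143 and 129.5 CPM untreated (0.38 ± 0.09, edgeR adjusted p = 0.198, DESeq2 2.61e-06). UGT2B15, its close relative, had 74.1, 76.00 and 79.2 CPM with genistein against 59.7, 56.7 and 59.97 CPM untreated (0.38 ± 0.10, edgeR adjusted p = 0.28). Reads shared among the near-identical UGT2B genes, and between FOLH1 and FOLH1B, make these counts uncertain. FOLH1 itself had 957, 952 and 1002 CPM with genistein against 859, 908 and 870.4 CPM untreated, with no overlap and an interval of -0.03 to 0.32.

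**Figure D3:**
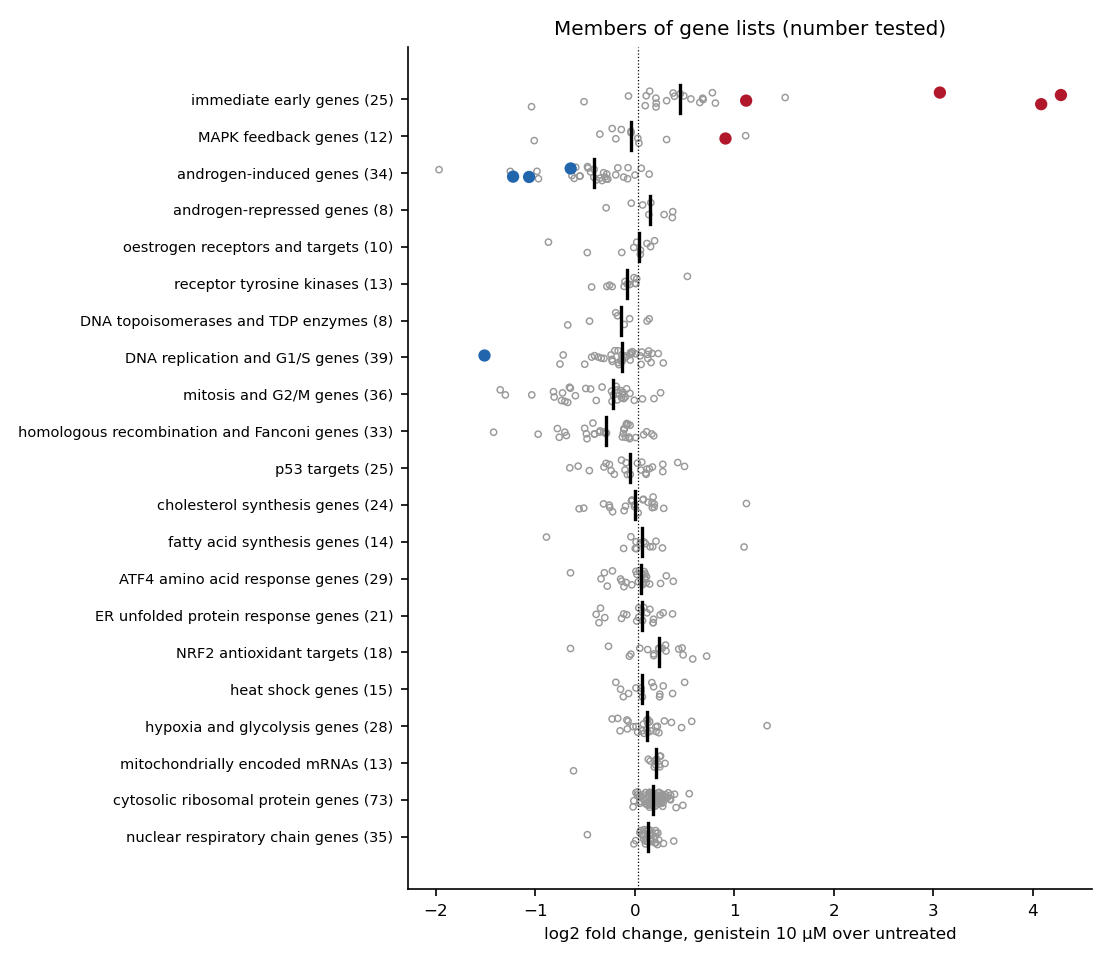
Log2 fold change, genistein 10 µM over untreated (x axis), of the tested members of 21 gene lists, with the number tested in brackets and 1 called gene not drawn. Filled points were called (red higher, blue lower), black bars are list medians and the dotted line is the median of all genes, 0.03; immediate early genes reach 4.28 and androgen-induced genes have their median at -0.41.

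The remaining genes called lower have varied roles. OTULINL, a relative of the deubiquitinase OTULIN that is thought to lack its activity (chr5:14581792-14616180, plus strand), had 21.5, 19.1 and 18.5 CPM with genistein 10 µM and 43.6, 42.1 and 41.5 CPM in untreated cells. It fell 2.15-fold (-1.11 ± 0.12, adjusted p = 0.00126) and remained called in all 14 alternative analyses. OTULIN, which cleaves linear ubiquitin chains, had 36.5, 34.6 and 35.1 CPM with genistein against 46.00, 45.2 and 41.6 CPM untreated (-0.32 ± 0.13, adjusted p = 0.537). CHRNA2, a subunit of nicotinic acetylcholine receptors (chr8:27459756-27479883), had 2.45, 2.36 and 3.97 CPM with genistein against 12.3, 11.4 and 10.5 CPM untreated and fell 3.90-fold (-1.96 ± 0.30, adjusted p = 0.0225). Its call was lost without genistein replicate 1 (adjusted p = 0.144) or 2 (0.178) and without untreated replicate 1 (0.0894). CHRNA2 was the 1 called gene among 6 tested nicotinic subunits, beside 0.0765% of all genes called lower. Another of the 6, CHRNA5, had 4.98, 6.30 and 6.72 CPM with genistein against 8.36, 7.34 and 7.87 CPM untreated (-0.39 ± 0.21, adjusted p = 0.624).

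UHRF1 and WWTR1 act in the nucleus. UHRF1, which brings the maintenance DNA methyltransferase to newly replicated DNA (chr19:4903080-4962154, plus strand), had 4.83, 7.31 and 5.96 CPM with genistein 10 µM and 18.95, 16.3 and 16.5 CPM in untreated cells. It fell 2.85-fold (-1.51 ± 0.23, adjusted p = 0.0225), and the call held in 1 of 6 analyses that left out a library (adjusted p 0.0447 to 0.144). DNMT1, its methyltransferase partner, had 80.05, 83.9 and 86.8 CPM with genistein against 82.3, 84.2 and 88.98 CPM untreated, with overlapping groups and an interval of -0.28 to 0.22. UHRF1 was the 1 called gene of 12 tested for DNA methylation and Polycomb, beside 0.0765% of all genes called lower. The median of these 12 was -0.09. WWTR1, which encodes the coactivator TAZ of the Hippo pathway (chr3:149517235-149736714, minus strand), had 3.14, 4.38 and 3.82 CPM with genistein against 9.14, 8.31 and 8.90 CPM untreated. It fell 2.31-fold (-1.21 ± 0.19, adjusted p = 0.0254), held in 1 of 6 such analyses (0.0359 to 0.144) and was lost with the GC and length trend removed (0.0876). CCN1, described above as higher, is a known target of YAP and TAZ, and CCN2, another target, had at most 1 read in any library. Of 16 tested genes of that pathway, 1 was called higher and 1 lower, beside 0.0353% and 0.0765% of all genes.

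TNFRSF19, a TNF receptor family member also called TROY (chr13:23570370-23676104, plus strand), had 7.74, 8.60 and 7.41 CPM with genistein 10 µM and 12.2, 15.8 and 15.2 CPM in untreated cells. It fell 1.81-fold (-0.86 ± 0.13, adjusted p = 0.0202), and the call held in 1 of 6 analyses that left out a library (adjusted p 0.0109 to 0.135). TRIM49D1 and TRIM49D2, near-identical TRIM family genes side by side (chr11:89911111-89922245, minus strand, and chr11:89924064-89933063, plus strand), both fell 1.85-fold. TRIM49D1 had 14.6, 14.8 and 14.9 CPM with genistein against 25.4, 29.6 and 27.00 CPM untreated (-0.89 ± 0.10, adjusted p = 0.00126), and TRIM49D2 had 20.01, 24.4 and 27.3 CPM with genistein against 41.95, 45.97 and 44.6 CPM untreated (-0.89 ± 0.14, adjusted p = 0.0284). Reads of the 2 copies could be assigned to either, so they are uncertain as separate results. TRIM49D2 lost its call in 5 of 6 analyses that left out a library (adjusted p 0.04998 to 0.161 over the 6). CCDC141, a coiled-coil protein (chr2:178829757-179050137, minus strand), had 1, 2 and 0 reads with genistein 10 µM and 27, 20 and 15 reads in untreated cells. Its level was 17.1 times higher in untreated cells, with a 95% interval of 5.59 to 85.3 that covers counting error only, and it fell in the fit (adjusted p = 0.0356). Leaving out any 1 of the 6 libraries ended the call (0.0778 to 0.171).

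**Figure D4:**
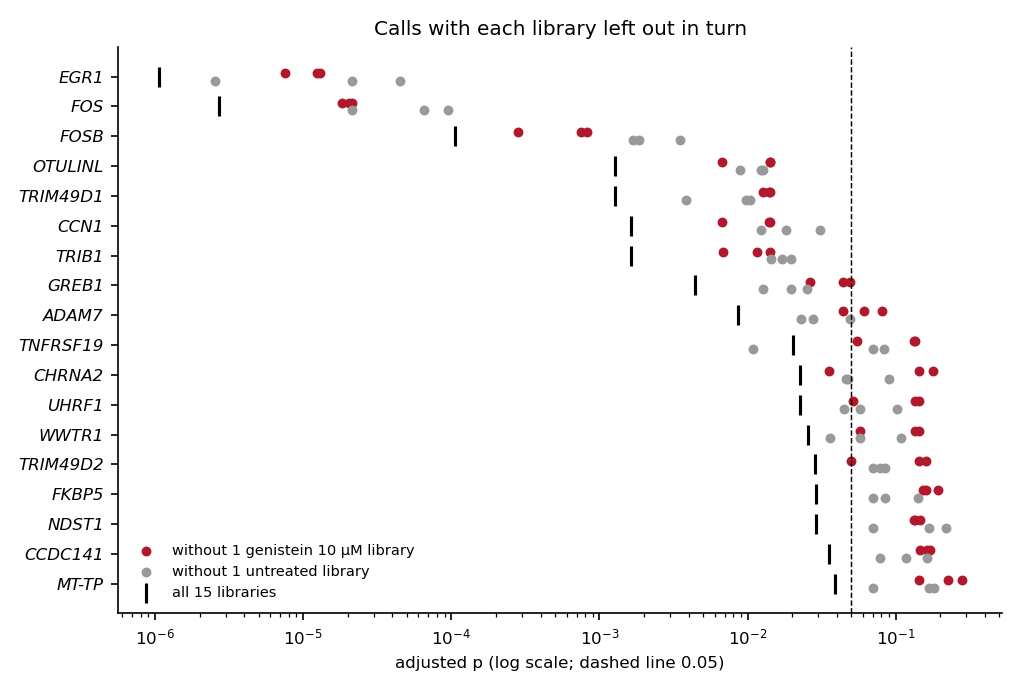
Adjusted p (x axis, log scale) of 18 called genes from edgeR with all 15 LNCaP libraries (black bars) and with 1 genistein 10 µM (red) or 1 untreated (grey) library left out. EGR1, FOS, FOSB, OTULINL, TRIM49D1, CCN1, TRIB1 and GREB1 stay left of the dashed line at 0.05, while FKBP5, NDST1, CCDC141 and MT-TP move right of it in all 6 cases.

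Among mitochondrial transcripts the direction differed by RNA type and by strand, a grouping chosen after the values were seen. The mitochondrial genome is transcribed from both strands as long precursors, and MT-ND6, a subunit of respiratory complex I, is the one protein gene annotated to the minus strand. MT-TP, the gene of the proline tRNA, on the annotated minus strand (chrMT:15956-16023), was called lower, with 0.460, 0.337 and 0.382 CPM with genistein against 1.25, 1.04 and 1.32 CPM in untreated cells (5 or 6 reads a library with genistein against 17 to 24 untreated). It fell 3.05-fold (-1.61 ± 0.27, adjusted p = 0.0386), a call lost with any 1 of the 6 libraries left out (0.0703 to 0.279) by DESeq2 (0.0619), with no filter on low counts and when the 6 libraries were fitted alone (0.119). MT-ND6 had 66.1, 69.4 and 68.9 CPM with genistein against 101, 100.4 and 112 CPM untreated (-0.62 ± 0.15, edgeR adjusted p = 0.255, DESeq2 0.00902). All 4 tested genes annotated to the minus strand had log2 fold changes below 0, with a median of -0.74. Of these 4, 3 are tRNA genes. On the plus strand all 12 mRNA genes and both rRNA genes were above 0, while 7 of 12 tRNA genes were below it, and 0 of the 26 were called. MT-TG, a glycine tRNA gene on that strand, had a log2 fold change of -0.91 ± 0.38 (edgeR adjusted p = 0.618), and MT-TT, a threonine tRNA gene, one of -0.45 ± 0.24 (edgeR adjusted p = 0.624), and neither overlaps between groups. MT-CO2, a subunit of cytochrome oxidase, had 3146, 3757 and 3679 CPM with genistein against 2699, 2929 and 2942 CPM untreated (0.30 ± 0.10, edgeR adjusted p = 0.471). The library kit does not mark strand, so reads of overlapping transcripts cannot be told apart. The libraries were made from poly(A) RNA, and whether reads at tRNA genes came from tRNA or from longer precursors was not tested. The total mitochondrial share was also higher in each genistein library than in any untreated one, and its part in these values was not tested.

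Genes of cell division were mostly below untreated levels without calls. Of 36 tested mitosis genes 0 were called by edgeR, and 8 had an unadjusted p under 0.05, all lower, beside 3.11% of all genes. DESeq2 called 2 of them lower, beside 0.422% of genes. The median was -0.22, 33 members lay below 0, and in 16 the genistein libraries all lay below the untreated ones, as in 10.2% of all genes. CENPF, a kinetochore protein, had 13.6, 13.9 and 14.3 CPM with genistein 10 µM and 26.3, 25.3 and 22.002 CPM in untreated cells (-0.82 ± 0.18, edgeR adjusted p = 0.198, DESeq2 0.00391). ASPM, a spindle pole protein, had 5.52, 5.06 and 4.59 CPM with genistein against 16.4, 11.1 and 11.3 CPM untreated (-1.35 ± 0.35, edgeR adjusted p = 0.298, DESeq2 0.0284). MKI67, the proliferation marker, had 24.2 ± 0.852 CPM with genistein against 26.4 ± 3.52 CPM untreated, with overlapping groups (-0.12 ± 0.17, adjusted p = 0.821), and CCNB1, the mitotic cyclin, had 51.4 ± 0.901 CPM with genistein against 54.9 ± 3.03 CPM untreated (-0.10 ± 0.09, adjusted p = 0.723). Beside 0.0765% of all genes called lower, UHRF1 was the 1 called of 39 genes of DNA replication and G1/S. Their median was -0.13, and PCNA, the polymerase clamp, had 122.8, 119.2 and 125 CPM with genistein against 171, 138 and 147 CPM untreated (-0.31 ± 0.19, adjusted p = 0.652).

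Homologous recombination and Fanconi genes, which repair breaks and crosslinks in DNA, gave 0 calls by edgeR among 33 tested. At an unadjusted p under 0.05 there were 4, all lower and beside 3.11% of all genes. DESeq2 called 1 of the 33 lower, beside 0.422% of genes. Their median was -0.28, and it shrank to -0.09 with the GC and length trend removed. BRCA2, a mediator of homologous recombination, had 5.37, 3.82 and 3.52 CPM with genistein 10 µM and 13.4, 8.92 and 11.5 CPM in untreated cells (-1.42 ± 0.32, edgeR adjusted p = 0.198, DESeq2 0.00723). BRCA1 had 12.9, 12.1 and 14.1 CPM with genistein against 16.6, 18.8 and 16.9 CPM untreated (-0.42 ± 0.12, edgeR adjusted p = 0.345), and neither gene overlaps between groups. Of 25 p53 targets 0 were called by either tool, and 1 passed an unadjusted p under 0.05, beside 8.58% of all genes. CDKN1A, the cell cycle inhibitor p21, had 207, 229 and 229 CPM with genistein against 156, 165 and 171 CPM untreated (0.43 ± 0.23, adjusted p = 0.625), and MDM2, which degrades p53, had 157, 119 and 126 CPM with genistein against 194, 147 and 158 CPM untreated (-0.31 ± 0.27, adjusted p = 0.709).

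Genistein is known to act on topoisomerases, receptor kinases and oestrogen receptors, and no tested gene of these lists was called. TOP2A, the type II topoisomerase of dividing cells, had 38.95, 29.9 and 31.3 CPM with genistein 10 µM and 58.8, 50.4 and 50.4 CPM in untreated cells (-0.67 ± 0.32, adjusted p = 0.597). TOP2B, its constitutive relative, had 168, 149.9 and 144 CPM with genistein against 241, 196 and 195 CPM untreated (-0.45 ± 0.20, adjusted p = 0.564). Neither pair of groups overlaps, and none of 8 tested topoisomerase and TDP genes was called by edgeR or DESeq2. Of these 8, 1 had an unadjusted p under 0.05, beside 8.58% of all genes. EGFR, a receptor tyrosine kinase, had 9.28, 25.4 and 9.93 CPM with genistein against 9.45, 11.6 and 10.00 CPM untreated, and its estimate of 0.53 ± 0.33 became -0.11 without genistein replicate 2. IGF1R had 70.2, 55.99 and 65.4 CPM with genistein against 78.1, 81.1 and 99.6 CPM untreated (-0.43 ± 0.13, edgeR adjusted p = 0.421). This was the smallest p among the 13 tested receptor kinases of the list. Of these 13, 0 were called by either tool and 1 had an unadjusted p under 0.05, beside 8.58% of all genes. EPHA5, a receptor kinase that is not on the list, was called lower by DESeq2 (-1.45, adjusted p = 0.0255). It was not called by edgeR (adjusted p = 0.278). ESR1, which encodes oestrogen receptor alpha, had 0 reads in all 3 genistein libraries and 0, 0 and 1 in untreated ones, and ESR2, the beta form, had 2, 0 and 1 with genistein against 1, 0 and 0 untreated, so neither was tested. GPER1, a membrane receptor for oestrogen, had 19.7, 17.1 and 21.5 CPM with genistein against 20.9, 19.9 and 15.2 CPM untreated (0.06 ± 0.19, adjusted p = 0.935). Of 10 tested oestrogen receptors and targets, and of 7 of the aryl hydrocarbon receptor, 0 were called by either tool. At an unadjusted p under 0.05 these lists held 0 and 1, beside 8.58% of all genes. GREB1, described above as hormone-induced and called lower, was placed on the androgen-induced list and is not among these 10. The count of 0 therefore depends on how genes were assigned to lists. CYP1A1, the enzyme that the aryl hydrocarbon receptor induces, had 3.53, 4.16 and 3.13 CPM with genistein against 2.91, 4.22 and 5.00 CPM untreated.

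Stress and metabolic lists held 0 calls by edgeR. NRF2 targets, the antioxidant genes, had a median of 0.24 over 18 tested, with 14 above 0, 6 with an unadjusted p under 0.05 on the higher side (5.47% of all genes) and 0 called by DESeq2. NQO1, a quinone reductase, had 183, 184 and 195 CPM with genistein 10 µM and 157, 155 and 164 CPM in untreated cells (0.24 ± 0.09, adjusted p = 0.518), whereas HMOX1, haem oxygenase, had 22.4 ± 1.56 CPM with genistein against 21.6 ± 2.48 CPM untreated, with overlap. Cytosolic ribosomal protein genes had a median of 0.19 over 73 tested, 71 were above 0, and 13 had an unadjusted p under 0.05, all higher (5.47% of all genes). Nuclear respiratory chain genes had a median of 0.14 over 35, of which 33 were above 0, and the 13 mitochondrially encoded mRNAs one of 0.22. DESeq2 called 0 genes of the first 2 lists and MT-ND6 of the third, beside 0.422% of genes called lower. These medians stayed above 0 in every alternative analysis in which the list could be fitted, 13 for the mitochondrial mRNAs and 14 for the others. The medians were 0.07 for 29 ATF4 targets, 0.07 for 21 genes of the unfolded protein response, 0.08 for 15 heat shock genes, 0.06 for 5 metallothioneins, 0.08 for 17 interferon-stimulated genes, 0.09 for 13 NF-kB genes and 0.09 for 15 BCL2 family genes, and each turned below 0 with no filter on low counts, where the median of all shared estimates was 0.0995 lower. DESeq2 called 1 ATF4 target lower, beside 0.422% of genes, and 0 genes of the other 6 lists. At an unadjusted p under 0.05 each list had 0 to 3 genes higher and 0 to 1 lower, beside 5.47% and 3.11% of all genes. For 28 hypoxia and glycolysis genes the median was 0.13, with 0 called by DESeq2. At that p 4 were higher and 0 lower, beside the same 5.47% and 3.11%.

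The cholesterol and fatty acid lists held 0 calls by edgeR. HMGCS1, an early enzyme of cholesterol synthesis, had 409.6, 366 and 360.2 CPM with genistein against 155, 486 and 494 CPM untreated, so that untreated replicate 1 lies below all genistein libraries and the other two above them. Its estimate was 0.00, and -0.37 without that library. The median of 24 cholesterol synthesis genes was 0.00. ELOVL5, a fatty acid elongase, had 797, 604 and 535 CPM with genistein against 1339, 1011 and 1231 CPM untreated (-0.89 ± 0.31, adjusted p = 0.473), and the median of 14 fatty acid genes was 0.07, turning to -0.03 with no filter on low counts. Neither list held a DESeq2 call. At an unadjusted p under 0.05 each had 2 genes higher, beside 5.47% of all genes, with 0 and 1 lower, beside 3.11%. PFKFB3, which makes an activator of glycolysis, had 21.5, 26.9 and 15.9 CPM with genistein against 7.84, 8.25 and 9.48 CPM untreated (1.33 ± 0.44, adjusted p = 0.452).

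The levels at 10 µM were then set beside the same drug at 20 µM in the same fit. Of the 19 genes, 10 differed between genistein 10 and 20 µM, a comparison in which 2246 of 16985 genes were called (13.2%). The 19 were called on the same genistein 10 µM libraries, which also lie in this comparison, so that count is a description. FOS averaged 5.82 ± 1.33 CPM untreated, 114 ± 8.88 CPM at 10 µM and 23.6 ± 3.54 CPM at 20 µM. EGR1, FOSB, CCN1 and NDST1 also had their highest level at 10 µM, and the log2 difference of 10 minus 20 µM ran from 1.06 for CCN1 to 2.52 for FOSB. NDST1 averaged 45.7 ± 5.76 CPM untreated, 105 ± 1.44 CPM at 10 µM and 23.7 ± 3.85 CPM at 20 µM, and was called lower at 20 µM than in untreated cells (log2 fold change -0.95, adjusted p = 0.00513). Of the genes that fell, ADAM7, WWTR1 and TNFRSF19 were lower at 10 than at 20 µM. ADAM7 averaged 23.4 ± 1.82 CPM untreated, 10.02 ± 0.882 CPM at 10 µM and 36.01 ± 3.06 CPM at 20 µM, so that the level at 20 µM was above untreated (0.62, adjusted p = 0.0189). WWTR1 averaged 8.79 ± 0.425, 3.78 ± 0.621 and 9.74 ± 0.909 CPM in that order. GREB1 fell further, with 53.3 ± 1.33 CPM untreated, 25.5 ± 1.46 CPM at 10 µM and 17.2 ± 2.19 CPM at 20 µM (10 minus 20 µM 0.57 ± 0.13, adjusted p = 0.0144). For TRIB1, OTULINL, CHRNA2, UHRF1, FKBP5, TRIM49D1, TRIM49D2, CCDC141 and MT-TP the difference between concentrations was not called. Its 95% interval was -0.36 to 0.15 for OTULINL, -0.08 to 0.37 for FKBP5 and -0.57 to 0.76 for CHRNA2.

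**Figure D5:**
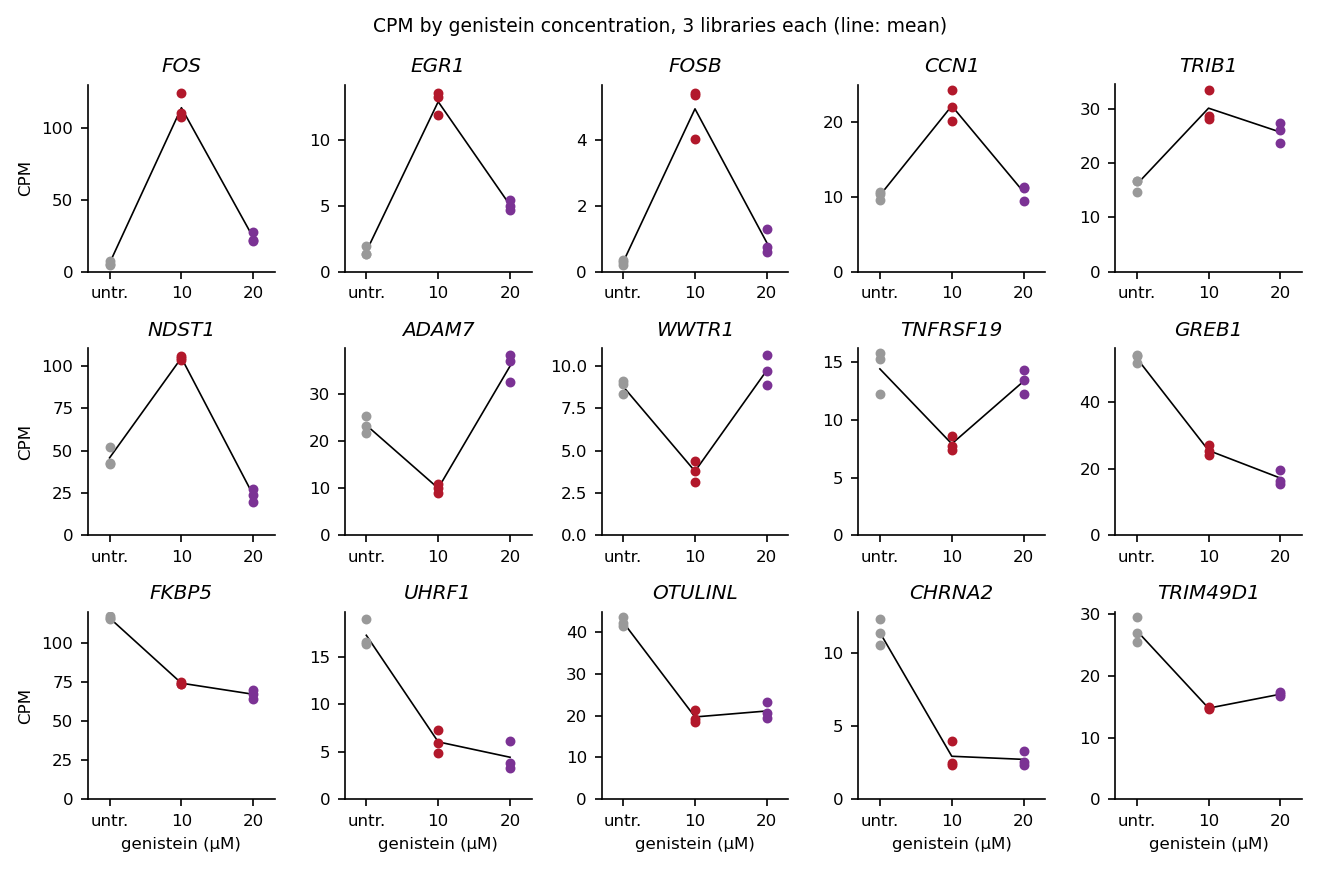
CPM (y axis) of 15 called genes in untreated cells and with genistein at 10 and 20 µM (x axis), 3 libraries each, with a line through the means. FOS, EGR1, FOSB, CCN1 and NDST1 are highest at 10 µM, ADAM7, WWTR1 and TNFRSF19 lowest there, and GREB1 is lowest at 20 µM.

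Baicalein, a flavone isomeric with genistein in which the phenyl ring joins the core at another position and the hydroxyl groups sit differently, was given at the same 10 µM and for the same time. Between genistein and baicalein at 10 µM 1 of 16985 genes was called (0.00589%), and it was NDST1, with 103, 105 and 106 CPM for genistein and 45.2, 25.9 and 32.1 CPM for baicalein (log2 difference 1.61 ± 0.19, adjusted p = 0.0268). Against untreated cells, baicalein 10 µM gave edgeR calls in the same direction for all of the 19 genes except NDST1 and TNFRSF19. Its log2 fold change was 4.21 for FOS, 3.22 for EGR1, -1.38 for GREB1 and -1.25 for ADAM7 (adjusted p 6.18e-07 to 0.00514). For NDST1 it was -0.41 (adjusted p = 0.445) and for TNFRSF19 -0.64 (0.0519). Both drugs were compared with the same 3 untreated libraries, so this is a description. FOS had 124, 109.8 and 108 CPM with genistein and 89.3, 120.1 and 115.8 CPM with baicalein, an interval of -0.39 to 0.53 for the difference. The interval was -0.45 to 0.14 for EGR1, -0.73 to 0.36 for FOSB, -0.15 to 0.38 for CCN1 and 0.03 to 0.61 for GREB1 (adjusted p = 0.638). None of these 5 differences passed the adjusted threshold. With 3 libraries a group, the values are compatible with any difference within these intervals.

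Genes just past the edgeR threshold follow, with edgeR adjusted p, and DESeq2 called all 6 of them (adjusted p 8.06e-08 to 0.0167). On the higher side these are CASP4, an inflammatory caspase with 34.7, 40.6 and 38.97 CPM with genistein 10 µM and 26.7, 27.8 and 27.1 CPM in untreated cells (0.49 ± 0.09, adjusted p = 0.0615), SERF1B (0.0615), which has a near-identical copy, and the long noncoding RNA ENSG00000273565 (0.0768). On the lower side are BICD2, a dynein adaptor with 34.7, 33.6 and 36.3 CPM with genistein against 50.7, 51.6 and 50.4 CPM untreated (-0.55 ± 0.09, adjusted p = 0.0501), AFF3, a nuclear factor of the AF4 family with 8.36, 9.78 and 7.72 CPM with genistein against 15.2, 16.4 and 15.9 CPM untreated (-0.87 ± 0.15, 0.0553), and the antisense RNA ENSG00000276888 (0.0588). Several genes with larger folds and no overlap between groups were far from the edgeR threshold. Of the 10 named here, DESeq2 called C5orf24 (adjusted p = 0.0139), CHAMP1 (0.0199), SLC7A2 (0.0249) and HPGD (0.0255), and the values that follow are from edgeR. C5orf24 had 20.1, 9.95 and 10.6 CPM with genistein 10 µM and 135, 71.9 and 93.1 CPM in untreated cells (-2.89 ± 0.80, adjusted p = 0.353). CHAMP1, a kinetochore-associated zinc finger protein, had 67.1, 63.9 and 63.4 CPM with genistein against 7.01, 31.7 and 20.9 CPM untreated (1.71 ± 0.43, adjusted p = 0.278). HPGD, which inactivates prostaglandins, had 2.76, 1.91 and 1.91 CPM with genistein against 11.5, 7.34 and 7.64 CPM untreated (-2.01 ± 0.52, adjusted p = 0.28). In SLC7A2, an amino acid transporter, the levels were 3.07, 3.49 and 3.44 CPM with genistein 10 µM and, in untreated cells, 3.74 CPM in replicate 1 and 28.5 and 29.1 CPM in the other two (-2.61 ± 0.76, adjusted p = 0.394). In CLDN12, a tight junction protein, they were 18.4, 44.3 and 25.9 CPM with genistein 10 µM and, in untreated cells, 308 CPM in replicate 1 and 58.9 and 62.2 CPM in the other two (-2.27 ± 0.89, adjusted p = 0.518). POLR2M had 12.04, 10.5 and 11.1 CPM with genistein 10 µM and 12.98, 91.3 and 19.6 CPM in untreated cells. UPK3BL1 had 9.12, 11.7 and 8.94 CPM with genistein 10 µM and 7.68, 0.428 and 0.460 CPM in untreated cells. The other uncalled rises without overlap were RALB, a small GTPase (1.71 ± 0.60, adjusted p = 0.478), UBFD1 (1.59 ± 0.49, 0.429) and BCL2L2, an inhibitor of apoptosis (1.73 ± 0.69, 0.524). The library that stood apart was untreated replicate 1 in SLC7A2, CLDN12 and UPK3BL1 and untreated replicate 2 in POLR2M. Replicate 1 also stood apart for UPK3BL1 with genistein 20 µM (8.07, 0.272 and 0 CPM) and with baicalein 10 µM (10.4, 0 and 0 CPM). With baicalein 20 µM UPK3BL1 had 0.676, 1.07 and 0 CPM.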

How the data were processed

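The deposited table holds raw counts, 1 whole number per gene and library. The build was GRCh38, and the tools named in the submitters' processing notes are featureCounts 1.6.4, STAR 2.7.6a, fastp and DESeq2 1.20.0, with no roles given. Strand setting, multi-mapping and annotation release are not given in the sources used here. From these counts, all 15 LNCaP libraries entered 1 fit with edgeR 4.0.16 in R 4.3.3 (TMM, default filter, robust quasi-likelihood F test, 10 residual degrees of freedom, biological coefficient of variation 0.235). Genes were called at a Benjamini-Hochberg adjusted p under 0.05. The SE is the unshrunken log2 fold change over the root of F, and intervals are centred on the reported, shrunken one. DESeq2 1.42.0, another normalization, filters, left-out libraries and a GC and length correction (GENCODE 29, matched for 95% of genes) were alternatives. Libraries of 1 group differed beyond sampling noise (chi-square per degree of freedom 13.3 to 35.8). The 18 deposited FPKM columns and the authors' coded comparisons were not used.

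The members, the 37 gene lists and the alternatives were chosen with earlier results of these data known. Genes were named from all called genes, the 2 smallest p of each list, genes of interest, the 3 genes just past the threshold in each direction and the 5 largest uncalled rises and falls without overlap (at least 5 CPM). DUSP1, JUN, JUNB, MYC, SPRED1, ELL2, KLK2, TMPRSS2, NDRG1, EXTL2, BRCA1, PCNA, CCNB1 and KRT18 are list members named after their values were seen. 1 called gene and a few others covered by these criteria are not reported here.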

Additional observations from a re-analysis of the deposited data

How the results depend on the processing

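Of the 19 called genes 8 were called in all 14 alternative analyses, among them EGR1, FOS, FOSB, CCN1, OTULINL, TRIM49D1 and GREB1. DESeq2 called 58 genes higher and 71 lower, the fit without baicalein 20 µM 12 and 28, and the GC and length correction 21 and 21. With no filter on low counts 21 genes were lower, and with the replicate block 6 were lower. With 1 library left out, 5 to 8 were higher and 4 to 8 lower. Rises made up 31.6% of calls in the main analysis, 45% by DESeq2, 50% with the GC and length trend removed, 22.2% with no filter, 45.5% with the replicate block and 41.7 to 63.6% with 1 library left out, the highest without genistein replicate 1. Same-numbered libraries of the 2 groups correlated at 0.156, 0.0182 and 0.0245 in their deviations from group means, and differently numbered ones at -0.13 to 0.118. These values do not settle whether replicate numbers mark pairs. With the number as a block 11 genes were called, all among the 19. The block ended the calls of CHRNA2, UHRF1, WWTR1, TRIM49D2, FKBP5, NDST1, CCDC141 and MT-TP (edgeR adjusted p 0.0524 to 0.138). The cause of these shifts was not tested. No called gene changed sign. Of 1401 values of 101 named genes under the alternatives, 22 of 7 uncalled genes did. HMGCS1 (0.002 in the main analysis) was -0.0242 with DESeq2 size factors, -0.0306 by DESeq2, -0.0967 unfiltered, -0.0314 with 6 libraries, -0.0168 without baicalein 20 µM and -0.0226 without mitochondrial genes. HMOX1 was -0.0183 with the GC and length trend removed. Unfiltered, HMOX1 was -0.0492, GPER1 -0.0447 and SYP -0.0222. With 1 library left out, the range was -0.372 to 0.191 for HMGCS1, -0.468 to 1.70 for CD14, -0.0864 to 0.00108 for DNMT1, -0.108 to 0.773 for EGFR, -0.118 to 0.145 for GPER1, -0.0430 to 0.0854 for HMOX1 and -0.0809 to 0.161 for SYP. Genes with few reads, such as MT-TP and CCDC141, are limited by depth.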
